A study of Mus musculus with 3 samples.

Results

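Horizontal cells of the mouse retina at postnatal day 6 (P6) were compared by how much Pyy RNA each cell held. Of the 6214 P6 horizontal cells, 1554 formed the Pyy-rich class, the top 25% by Pyy UMIs per 1000000 UMIs of the cell, and 3160 formed the Pyy-negative class, in which no Pyy molecule was counted. The 1500 cells between them belonged to neither class. Together the 6214 cells were 62.8% of the 9896 barcodes of the P6 library, and the whole series held 20048 barcodes in 3 libraries. The retinas came from Tg(Cx57icre;Ai14) mice at P6, P8 and P11, with 1 library per age. All 3 libraries carry both alleles, an iCre recombinase driven by the connexin 57 gene, which horizontal cells express, and a Cre-dependent red fluorescent reporter; libraries without them were not analysed here. Retinas were dissociated with papain, fluorescent cells were sorted, and single cells were captured with the 10x Genomics 3' chemistry, in which each captured transcript gets a unique molecular identifier (UMI). The labels do not give the number or the sex of the mice pooled in a library.

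A barcode counted as a horizontal cell when it had at least 1000 detected genes, at most 10% mitochondrial UMIs, at least 5000 UMIs and a UMI of at least 2 of the 3 transcription factor genes Lhx1, Onecut1 and Onecut2. The classes were cut on Pyy itself, so the Pyy values describe the choice and are no finding. The cut lay at 189.87 Pyy UMIs per 1000000, with the nearest cells at 189.885 inside and 189.825 outside. Every cell was thinned at random to 5000 UMIs before the classes were summed, and levels are given as counts per 1000000 UMIs (CPM) without Pyy in the total. With 1 library, cells are not replicates. Nothing here was therefore tested, and the 95% intervals given cover counting error only. They are exact Poisson intervals for a level, exact conditional binomial intervals for a ratio and Clopper-Pearson intervals for a share.

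Peptide YY, the product of Pyy, is best known as a hormone of gut endocrine cells. It belongs to a small peptide family with neuropeptide Y (Npy) and pancreatic polypeptide (Ppy), whose members are cut from longer precursors in the secretory pathway, stored in dense core vesicles and bind G protein-coupled Y receptors. Horizontal cells are inhibitory interneurons that contact photoreceptor terminals in the outer retina, and in the mouse they form 1 axon-bearing type.

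Pyy lies on chromosome 11 at 102106676 to 102107832 (minus strand, mm10) and overlaps no other annotated gene, and Npy lies on chromosome 6 at 49822710 to 49829507 (plus strand). The 250 bases before the transcription start are shown for these 2 peptide genes and for Shox2, the gene whose level differed most between the classes. The sequences are RefSeq's for GRCm38.p6, and capitals mark the TATA core TATAA.

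Pyy, chr11:102107833-102108082, minus strand: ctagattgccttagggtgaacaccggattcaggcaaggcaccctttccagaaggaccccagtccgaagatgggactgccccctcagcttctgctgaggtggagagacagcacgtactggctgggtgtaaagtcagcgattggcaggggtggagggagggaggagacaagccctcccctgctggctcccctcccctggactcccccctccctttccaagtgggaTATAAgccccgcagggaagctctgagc

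Npy, chr6:49822460-49822709, plus strand: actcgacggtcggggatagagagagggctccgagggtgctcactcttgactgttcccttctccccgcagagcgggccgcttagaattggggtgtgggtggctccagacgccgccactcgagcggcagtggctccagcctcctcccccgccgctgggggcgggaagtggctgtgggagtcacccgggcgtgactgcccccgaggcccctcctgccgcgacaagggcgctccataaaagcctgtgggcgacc

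Shox2, chr3:66981772-66982021, minus strand: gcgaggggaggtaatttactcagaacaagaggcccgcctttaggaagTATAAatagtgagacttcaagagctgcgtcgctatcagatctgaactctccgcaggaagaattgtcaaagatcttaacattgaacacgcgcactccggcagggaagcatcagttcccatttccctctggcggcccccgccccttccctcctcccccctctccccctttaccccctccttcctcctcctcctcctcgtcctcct

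In the Pyy promoter TATAA began 27 bases before the start used here. RefSeq lists a second Pyy start at 102107776, which lies 83 bases after the same TATAA. In the Shox2 promoter it began 203 bases before the start. The 5 letters, on either strand, occur in 22.8% of 32851 mouse promoters of the same length. The Npy window does not hold this core. The letters TAATTA, a core bound by homeodomain proteins, occurs on either strand in 4.84% of promoters. Of the cores bound by Onecut proteins, the A form, ATCAAT, occurs in 6.72%. The rarer G form, spelled ATCGAT, occurs in 0.728%. None of the 3 windows held any of them. These matches are descriptions of letters in a window and no evidence of binding.

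Pyy was spread very unevenly over the P6 horizontal cells. Of the 6214 cells, 3054 (49.1%) held at least 1 Pyy UMI, 1031 (16.6%) held exactly 1, and 497 (7.998%) held 10 or more. The highest cell held 81. The Pyy-rich class held 87.8% of all Pyy UMIs, with a median of 6 UMIs per cell, and its upper part alone, the 622 cells of the top 10% by Pyy, held 62.8%. The variance of Pyy over the thinned cells was 7.13 times its mean, which ranked 4 among 3816 genes with at least 50 CPM, below Malat1, Lsamp and Npy. Among the 496 genes between 178 and 277 CPM, around the level of Pyy (222 CPM after thinning), the highest such value was 2.43 and the median 1.05. A count that scattered at random over alike cells would give a value near 1.

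**Figure D1:**
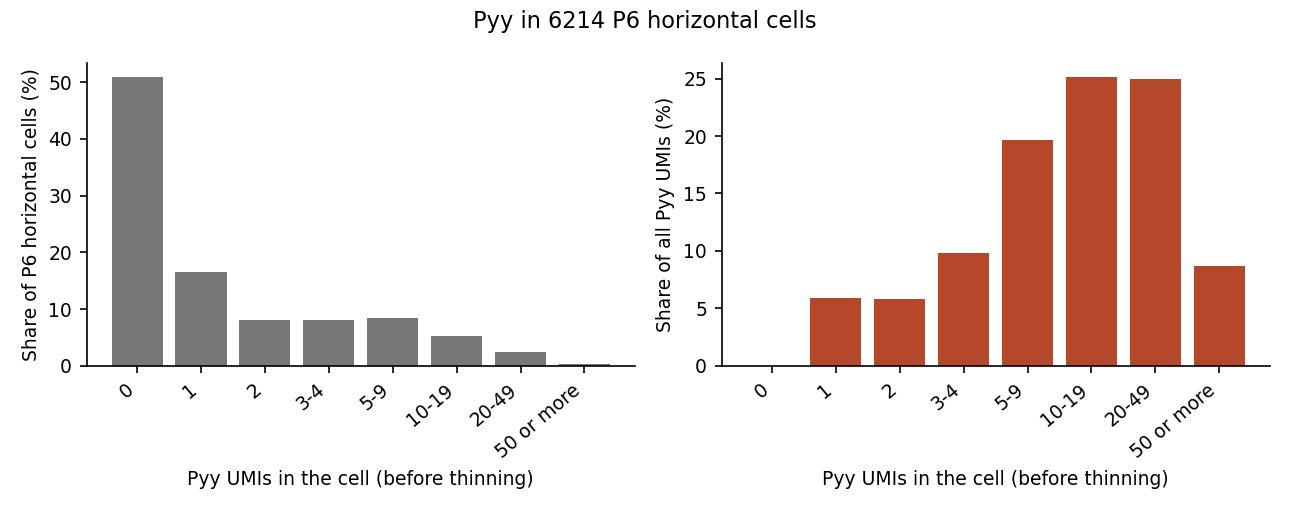
Distribution of Pyy over 6214 P6 horizontal cells by the number of Pyy UMIs in the cell before thinning. The left bars give the share of cells and the right bars the share of all 17366 Pyy UMIs; the 497 cells with 10 or more UMIs are 7.998% of the cells and hold most of the Pyy UMIs.

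A cell without a Pyy UMI is not a cell shown to lack the transcript. At the median depth of the Pyy-negative class, 12258 UMIs, a count of 0 allows a level of up to 245 CPM, which lies above the cut. Median depth was 13129 UMIs in Pyy-rich cells and 12258 UMIs in Pyy-negative cells. Pyy was also counted in barcodes without the horizontal cell factors, and its source there was not tested. When barcodes were thinned to 1500 UMIs, Pyy was found in 18.2% of the horizontal cells (median depth 12948 UMIs) and in 13 of 190 barcodes with none of the 3 horizontal cell factors (6.84%, interval 3.69% to 11.4%, median depth 2337 UMIs). It was found in 1 of 38 barcodes with Müller glia genes (2.63%, interval 0.0666% to 13.8%, median depth 2893 UMIs). The share in horizontal cells lay above both intervals. Of the 190 barcodes, 74.7% held Npy and 1 held 11 Pyy UMIs.

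The 10 horizontal cell markers summed to 7365 CPM in Pyy-rich cells and 7774 CPM in Pyy-negative cells, and all 10 were detected in each class. Lhx1, Onecut1 and Onecut2, 3 of the 10, chose the cells and are no check of them. Of the markers that the choice did not use, Tfap2b was at 1609 CPM in Pyy-rich and 1678 CPM in Pyy-negative cells, Prox1 at 855 and 909 CPM, and Calb1 at 687 and 719 CPM. Mitochondrial share (medians 3.16% and 3.17%), detected genes after thinning (2517 and 2525) and Malat1, a nuclear RNA often used as a sign of damaged cells (18548 and 18954 CPM), differed little between Pyy-rich and Pyy-negative cells. Transcripts of both sexes were present in both classes, with Xist at 536 CPM in Pyy-rich and 581 CPM in Pyy-negative cells and Ddx3y, a Y-linked gene, at 31.3 CPM and 30.5 CPM.

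Markers of other retinal cells were low. The 11 amacrine markers summed to 89.8 CPM in Pyy-rich and 99.4 CPM in Pyy-negative cells, nearly all of it Tcf4 (80.4 and 86.3 CPM). The 8 ganglion cell markers summed to 1351 CPM and 1293 CPM. Of these sums Nefl, a neurofilament gene that horizontal cells also express, gave 1298 CPM and 1249 CPM, while the defining factors Pou4f1, Pou4f2 and Pou4f3 were at 0 in Pyy-rich cells. The cone, bipolar, microglial, endothelial, pericyte, astrocyte, erythroid and cycling lists summed to at most 11.1 CPM each in either class, with Vsx1, C1qa, Cdh5 and Gfap at 0 in Pyy-rich cells. The cycling list, led by Birc5, was higher in Pyy-rich cells at 2.83 CPM against 1.39 CPM (2.04, 1.07 to 3.85), though both sums were small. The 8 Müller glia markers, led by Glul, summed to 213 CPM and 206 CPM. A cell was marked when it held UMIs of at least 2 amacrine markers, 2 ganglion cell markers or 2 of 5 Müller glia markers (without Glul, Clu and Dkk3). Cells were not screened for the other lists. By this rule 41.9% of Pyy-rich against 31.5% of Pyy-negative cells were marked. Slc17a6, the vesicular glutamate transporter VGLUT2 and a ganglion cell marker, accounted for most of this, with a UMI in 35.3% of Pyy-rich and 24.7% of Pyy-negative cells before thinning. Without Nefl and Slc17a6, 0 Pyy-rich and 5 Pyy-negative cells (0.158%) held 2 ganglion cell markers. With all marked cells left out, Shox2 stood at 3.72-fold, Alk at 1.60-fold and Frem1 at 1.62-fold in Pyy-rich over Pyy-negative cells. High doublet scores were found in 7.72% of Pyy-rich and 7.34% of Pyy-negative cells.

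The classes were closely alike in the rest of the transcriptome. Among 6972 genes with at least 20 CPM in the higher class, 97.1% lay within 1.2-fold of each other, and the SD of the log2 ratio was 0.115. A gene was called when its ratio was at least 1.5-fold. Of the 6972 genes, 9 (0.129%) were called, 6 (0.0861%) higher in Pyy-rich cells and 3 (0.043%) lower. The 6 higher genes were Shox2, Frem1, Cacna1e, Alk, Anxa2 and Cpne4, and the 3 lower genes were B530045E10Rik, St8sia3os and Drd4. Shox2, Anxa2 and the 3 lower genes fell outside the rule for naming genes and are named because their values were seen. With another random seed for the thinning, or with no thinning, Anxa2, Cacna1e, Cpne4, Drd4 and St8sia3os, 5 of the 9, were no longer called, and the counts were 4 higher and 2 lower.

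**Figure D2:**
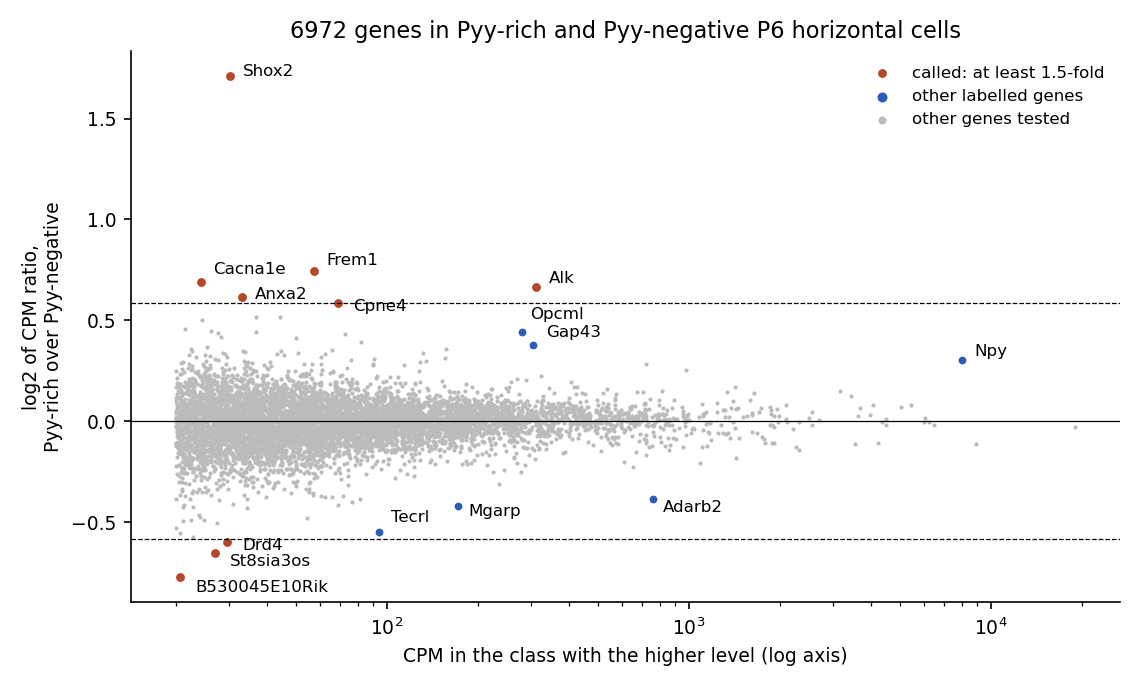
Each point is 1 of 6972 genes with at least 20 CPM in the higher class; the x axis gives that CPM (log axis) and the y axis the log2 of the CPM ratio, Pyy-rich over Pyy-negative, with dashed lines at 1.5-fold. Shox2 stands alone at 1.71, and Npy lies at 0.31 at the far right among genes that scatter close to 0.

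Npy, the other member of the peptide family that the cells expressed, was higher where Pyy was higher. It reached 8008 CPM (7945 to 8071) in Pyy-rich cells and 6481 CPM (6441 to 6521) in Pyy-negative cells, a ratio of 1.24 (1.22 to 1.248). Nearly every cell of both classes held Npy, since 0 Pyy-rich and 2 Pyy-negative cells had none after thinning, so the difference was one of amount. The median cell held 37 Npy UMIs of 5000 in the Pyy-rich class and 30 in the Pyy-negative class. Over all P6 horizontal cells, 35.9% of Pyy-rich and 21.9% of Pyy-negative cells fell in the highest 25% by Npy.

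The level of Npy followed Pyy across finer classes. The cells between the classes were split at their median into a lower and an upper part of 750 cells each, and the Pyy-rich cells into 932 below the top 10% and 622 in it. From no Pyy to most Pyy, Npy stood at 6481, 6477, 7147, 7778 and 8352 CPM. The lowest 2 of these levels overlapped in their intervals, and each of the next 3 lay above the interval of the one before. The finer classes also differed in depth and in Malat1. From no Pyy to most Pyy, median depth before thinning was 12258, 14400, 12872, 13370 and 12673 UMIs. In the same order, Malat1 stood at 18954, 20728, 19884, 19227 and 17531 CPM. What these differences added to the levels of Npy or of any other gene across the finer classes was not tested. Over the 6214 thinned cells the Pearson correlation of log2 counts with Pyy was 0.17 for Npy, the highest of all genes with at least 50 CPM, ahead of Alk (0.14), Nnat (0.12), Opcml (0.11) and Gap43 (0.10). Such values are weak, the counts are sparse and the cells share 1 library, so they only order the genes. Counting error lowers the value more for genes with few UMIs, so the order also depends on abundance. Npy was at 6941 CPM and Alk at 240 CPM over these cells. Shox2 (15.9 CPM) and Frem1 (42.4 CPM) lay under the limit and were not ranked.

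The receptors for these peptides were at or near 0 in the horizontal cells. Npy2r, Npy4r, Npy5r, Npy6r and Ppy had 0 UMIs in both classes, and a count of 0 allows up to 3 UMIs in each class. Npy1r had 3 UMIs in the 1554 Pyy-rich cells and 8 in the 3160 Pyy-negative cells. The machinery that makes and packs peptides was present at like levels. Of 20 such genes 17 reached 20 CPM, none was called, and 13 lay above 1 and 4 below, with a median log2 ratio of 0.07 against −0.004 for all genes tested. Scg5, a chaperone of prohormone convertase PC2, was at 323 CPM in Pyy-rich and 277 CPM in Pyy-negative cells (ratio 1.17, 1.11 to 1.23). Syt4, a synaptotagmin of dense core vesicles, was at 154 and 137 CPM (1.13, 1.05 to 1.21), and Pcsk1n, which encodes proSAAS, at 5439 and 5152 CPM (1.06, 1.04 to 1.07). Chga, a granin, lay below 1 at 94.9 and 98.7 CPM, with an interval that included 1 (0.96, 0.88 to 1.05). Of the convertases themselves, Pcsk2 had 18.5 CPM in Pyy-rich and 17.4 CPM in Pyy-negative cells, and Pcsk1 had 3 and 5 UMIs.

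Shox2 showed the largest ratio of the 6972 genes. It encodes a homeodomain transcription factor known for its part in limb and heart pacemaker development. The gene lies on chromosome 3 at 66971727 to 66981771 (minus strand) and overlaps Rsrc1, which is annotated on the opposite strand. Its level was 30.3 CPM (26.5 to 34.4) in Pyy-rich and 9.24 CPM (7.80 to 10.9) in Pyy-negative cells, a ratio of 3.28 (2.65 to 4.06). The difference came with more cells that held the transcript, 10.7% (9.19% to 12.3%) of Pyy-rich against 3.48% (2.87% to 4.18%) of Pyy-negative cells after thinning. From no Pyy to most Pyy the level was 9.24, 10.9, 19.5, 26.6 and 35.7 CPM. Read the other way, Pyy stood at 460 CPM in the 356 cells with a Shox2 UMI and at 207 CPM in the cells without one. This restates the same relation in the same cells and is no separate evidence of it. Most Pyy-rich cells nevertheless had no Shox2 UMI at this depth. When all cells with a Shox2 UMI were left out, an alternative chosen after the values were seen, Npy (1.22-fold), Alk (1.55-fold) and Frem1 (1.61-fold) stayed higher in Pyy-rich cells.

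Alk was the most abundant of the called genes. It encodes a receptor tyrosine kinase of developing neurons and spans 736 kb of chromosome 17. It reached 312 CPM (300 to 325) in Pyy-rich and 197 CPM (190 to 204) in Pyy-negative cells, a ratio of 1.58 (1.501 to 1.67), and a UMI was found in 64.0% and 47.4% of these cells. From no Pyy to most Pyy it was at 197, 256, 258, 293 and 342 CPM. Cells with no Pyy UMI and cells with the least Pyy thus differed in Alk, and also in median depth before thinning (12258 and 14400 UMIs). What depth added to the Alk difference was not tested. The other 14 tested members of the growth factor and hormone receptor list, among them Ret, Ntrk2, Igf1r and Fgfr2, were not called, and 10 of them lay below 1. The insulin receptor gene Insr was the lowest at 17.3 CPM in Pyy-rich and 23.8 CPM in Pyy-negative cells (0.73, 0.59 to 0.89).

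Frem1, a gene for an extracellular matrix protein, was at 57.4 CPM in Pyy-rich and 34.3 CPM in Pyy-negative cells (1.67, 1.47 to 1.90). A Frem1 UMI was found in 22.3% and 13.8% of them after thinning. Leaving out all cells with a Frem1 UMI, also chosen after the values were seen, left Shox2 at 2.80-fold. Scml4, a polycomb-like gene that is also uneven among P6 horizontal cells, did not follow Pyy, with a UMI in 31.4% of Pyy-rich and 31.9% of Pyy-negative cells. The 4 of 21 dorsoventral genes that reached 20 CPM did not separate the classes either, and the rest of that list was too low to compare. Vax2, a ventral homeodomain factor, was found in 16.2% of Pyy-rich and 17.6% of Pyy-negative cells, and Rassf8 in 12.7% and 14.1%.

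The other 3 genes called higher were near the limits of the rule. Cacna1e, the pore subunit of the R-type calcium channel, was at 24.2 CPM in Pyy-rich and 15 CPM in Pyy-negative cells (1.61, 1.33 to 1.96). It was the single call among 29 tested ion channel genes, beside 9 of all 6972 genes (0.129%). A single call is no result about ion channels. Anxa2, a calcium-dependent membrane-binding annexin, was at 33.2 and 21.7 CPM (1.53, 1.30 to 1.80), and Cpne4, a copine, at 68.9 and 45.9 CPM (1.502, 1.34 to 1.68). Cpne4 stood at 45.9 and 46.9 CPM in the 2 lowest Pyy classes and at 79.5 CPM in the highest. Their calls depended on settings that left the direction alone, and all 3 were lost with another random seed (1.44, 1.29 and 1.39 for Cacna1e, Anxa2 and Cpne4). Cacna1e was called under 12, Anxa2 under 10 and Cpne4 under 8 of 15 alternative settings, against all 15 for Alk.

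**Figure D3:**
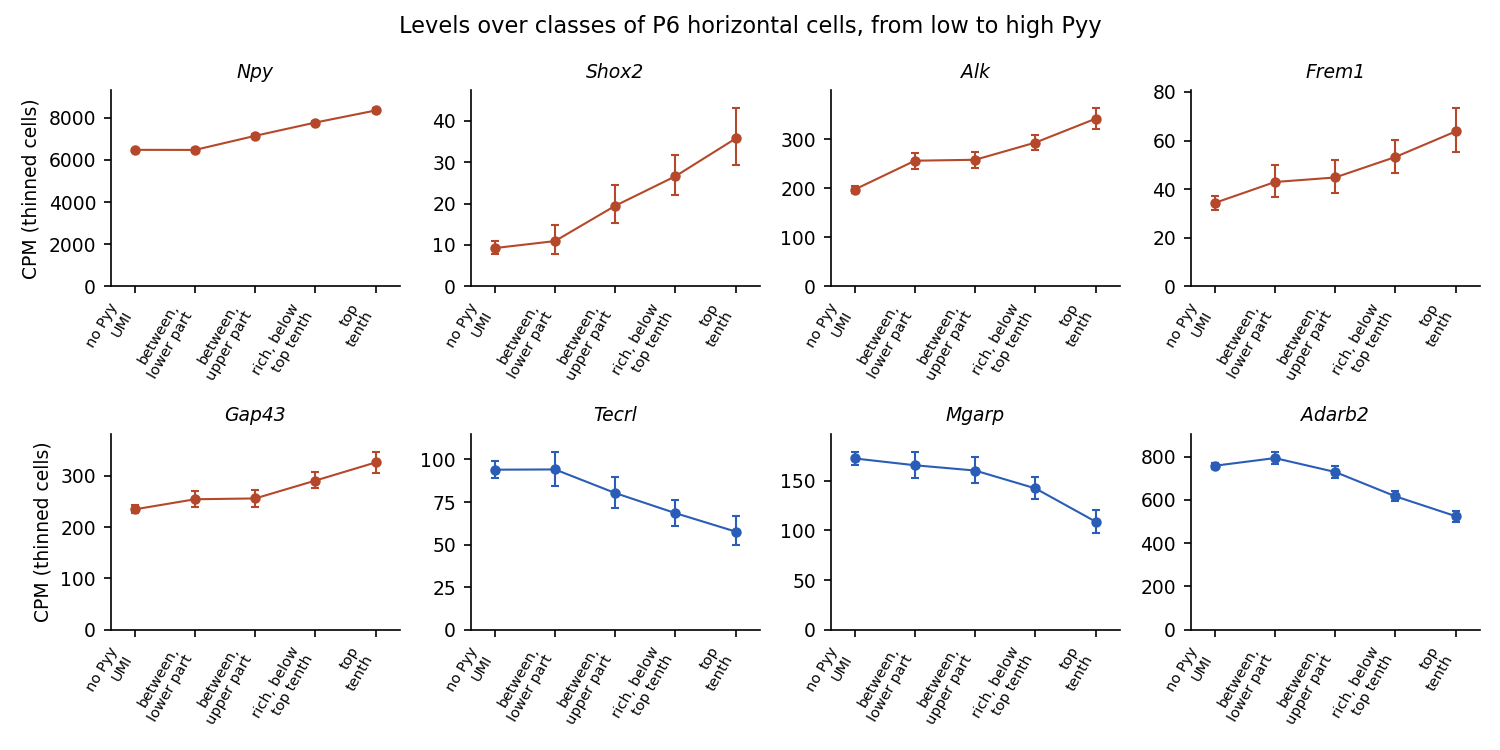
Level in CPM (y axes, from 0) of 8 genes over 5 classes of P6 horizontal cells from no Pyy to most Pyy (x axes); points are class sums and bars exact Poisson 95% intervals, which for Npy lie within the points. Npy, Shox2, Alk, Frem1 and Gap43 are highest and Tecrl, Mgarp and Adarb2 lowest in the top 10%.

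Below the 1.5-fold limit, further genes were among the 15 highest ratios of genes with at least 50 CPM. Opcml, a cell adhesion protein of the IgLON family, was at 279 CPM in Pyy-rich and 205 CPM in Pyy-negative cells (1.36, 1.29 to 1.44). Gap43, the growth cone protein, was at 305 and 235 CPM (1.30, 1.23 to 1.37), and Caly, a vesicle trafficking protein, at 157 and 123 CPM (1.28, 1.19 to 1.38). Dpp10, an auxiliary subunit of potassium channels, was at 72.8 and 54.0 CPM (1.35, 1.21 to 1.501). Others of the 15 were Slc2a13 (1.31), Dhrs1 (1.28), Ly6h (1.27), Slc17a6 (1.26), Shroom2 (1.26), Chchd10 (1.247), Ache, which encodes acetylcholinesterase (1.24), and Slc12a5, the potassium-chloride exporter KCC2 (1.24). None of these passed 1.5-fold.

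Immature neuron genes lay on both sides of 1. Of 24 such genes tested, 15 lay above 1 and 9 below, with a median log2 ratio of 0.05, and Gap43 was alone past 1.2-fold. Nnat, which encodes a small membrane protein of developing neurons, was at 974 CPM in Pyy-rich and 818 CPM in Pyy-negative cells (1.19, 1.16 to 1.23), and the tubulin-binding stathmin Stmn3 at 1648 and 1496 CPM (1.102, 1.08 to 1.13). Dcx, a microtubule protein of young neurons, lay on the other side at 673 and 736 CPM (0.91, 0.88 to 0.94). Of 10 calcium-binding protein genes 9 lay above 1, where 48.4% of all genes tested did, although Calm2 (1.01), Calm3 (1.003) and Sncb (1.02) were close to 1. The highest was Hpca, or hippocalcin, at 49.8 and 37.5 CPM (1.33, 1.17 to 1.51). Calb1, which encodes the horizontal cell marker calbindin, was the exception at 687 and 719 CPM (0.95, 0.92 to 0.99).

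Among genes lower in Pyy-rich cells, Drd4 encodes the dopamine D4 receptor. It was at 19.6 CPM in Pyy-rich and 29.6 CPM in Pyy-negative cells (0.66, 0.55 to 0.80), and its call held under 8 of 15 alternative settings. The long noncoding RNA B530045E10Rik was at 12.1 and 20.7 CPM (0.59, 0.46 to 0.74). St8sia3os, annotated antisense to St8sia3, was at 17.1 and 27.0 CPM (0.64, 0.52 to 0.77), and at 0.80 with another random seed. Its call held under 10 of the 15 settings. These 3 were low-abundance transcripts.

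More abundant genes differed less. Tecrl, an enoyl-CoA reductase-like gene, was at 64.1 CPM in Pyy-rich and 94.0 CPM in Pyy-negative cells (0.68, 0.62 to 0.76). Mgarp, which encodes a protein of mitochondria, was at 129 and 172 CPM (0.75, 0.69 to 0.80), and Adarb2, of the RNA-editing enzyme family, at 580 and 758 CPM (0.77, 0.74 to 0.79). From no Pyy to most Pyy, Tecrl stood at 94.0, 94.1, 80.3, 68.5 and 57.6 CPM, Mgarp at 172, 166, 160, 142 and 109 CPM, and Adarb2 at 758, 793, 729, 617 and 525 CPM. For Tecrl and Adarb2 the 2 lowest Pyy classes thus differed little, and the lower levels lay in the Pyy-rich cells. Arhgef26 (0.72), Pcdh17, a protocadherin (0.75), Hipk2, a kinase (0.77), and Kcnk1, a two-pore potassium channel (0.79), were also among the 15 lowest ratios. When the top 10% by Pyy stood in for the Pyy-rich class, Tecrl, Arhgef26 and Mgarp passed 1.5-fold, and the calls numbered 11 higher, with all 6 above among them, and 18 lower, with all 3 above among them.

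Of 16 tested horizontal cell fate factors, 5 lay above 1 and 11 below, with a median log2 ratio of −0.05, where 48.4% of all genes tested lay above 1. The mature horizontal cell genes lay 9 above and 5 below, with a median of 0.03. Onecut1 was at 695 CPM in Pyy-rich and 756 CPM in Pyy-negative cells (0.92, 0.89 to 0.95) and Esrrb, an orphan nuclear receptor, at 84.4 and 96.7 CPM (0.87, 0.79 to 0.96), while Lhx1 was at 714 and 697 CPM (1.02, 0.99 to 1.06). Of 17 guidance and spacing genes, 4 lay above 1 and 13 below. The axon guidance ligand Slit2 was at 96.9 and 116 CPM (0.83, 0.76 to 0.91) and Slit1 at 160 and 185 CPM (0.86, 0.81 to 0.92), whereas the spacing protein gene Megf11 was at 583 and 570 CPM (1.02, 0.99 to 1.06). Of 26 vesicle release genes, 18 lay above 1 and 8 below, with Cplx3, a complexin of ribbon synapses, lowest at 13.9 and 20.1 CPM (0.69, 0.55 to 0.87). The ankyrin genes Ank2 and Ank3 had ratios of 0.93 (0.91 to 0.95) and 0.94 (0.91 to 0.98).

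The remaining lists held no called gene. Their median log2 ratios lay between −0.05 and 0.03 for the dorsoventral genes, mature horizontal cell genes, ankyrins and spectrins, synaptic adhesion, cadherins, glutamate receptors, GABA genes, glycolysis, immediate early genes and endoplasmic reticulum genes. Immediate early and dissociation response genes were balanced, with 4 of 7 above 1. Of 29 other neuropeptide genes in the files, Vgf alone reached 20 CPM, at 43.9 CPM in Pyy-rich and 41.5 CPM in Pyy-negative cells (1.06, 0.93 to 1.21).

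The P8 library, which the choice of cells did not use, gave a separate measurement. Pyy was rarer there. A Pyy UMI was found in 259 of 3004 horizontal cells (8.62%), and 994 UMIs were counted, or 16.0 CPM, against 219 CPM before thinning at P6. Cells with a Pyy UMI had a median depth of 21674 UMIs and cells without one 20843 UMIs. At P11 7 of 4587 horizontal cells (0.153%) held Pyy, too few for a comparison. The P6 and P8 libraries shared 13 cell barcodes, of which 4 were horizontal cells in both.

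Most differences seen at P6 had the same direction at P8. Of the 9 genes called at P6, 8 lay on the same side of 1 in P8 cells with against without a Pyy UMI, where 54.6% of all 6972 genes did. At P8 itself, 115 of 6528 genes (1.76%) passed 1.5-fold, a larger share over fewer cells. Shox2 was at 42.5 CPM in P8 cells with Pyy and 17.4 CPM in those without (2.44, 1.79 to 3.28), with 3.20 (2.14 to 4.64) for the 115 cells with at least 2 Pyy UMIs, 2.13 (1.83 to 2.49) without thinning and 1.77 (1.12 to 2.85) with the P8 classes matched on depth. Alk was at 70.3 and 36.1 CPM (1.94, 1.54 to 2.44), although its level over all horizontal cells was 240 CPM at P6 and 39.1 CPM at P8. Npy was at 11133 and 9200 CPM (1.21, 1.19 to 1.23), close to its ratio of 1.24 at P6.

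For the other called genes the P8 counts were small. Anxa2 (1.71, 1.201 to 2.37), Frem1 (1.49, 1.01 to 2.13) and Drd4 (0.70, 0.50 to 0.94) had intervals that excluded 1, while Cpne4 (1.26, 0.88 to 1.77), Cacna1e (1.16, 0.51 to 2.32) and B530045E10Rik (0.42, 0.14 to 1.02) did not. St8sia3os lay on the opposite side (1.44, 0.69 to 2.71), and at 1.02 (0.70 to 1.45) without thinning. Several of these values moved with the setting. With matched depth Anxa2 was at 3.82 (1.93 to 8.22), and the intervals of Frem1 (0.91 to 2.85) and Drd4 (0.46 to 1.01) included 1. Without thinning Anxa2 was at 1.301 (1.08 to 1.55), and the intervals of Cpne4 (1.66, 1.43 to 1.93) and B530045E10Rik (0.64, 0.43 to 0.93) excluded 1.

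At 1.2-fold and at least 100 CPM, a rule added after the values were seen, 11 of 2114 genes (0.52%) were higher in Pyy-rich P6 cells and 6 (0.284%) lower, and all 17 lay on the same side of 1 at P8, against 61.2% of the 2114. Some lay close to 1: Arg2 (0.96) and Slit2 (1.07) changed side when the P8 classes were matched on depth, and AI593442 (0.95) and Arg2 (0.94) when at least 2 Pyy UMIs were asked of the P8 cells. Opcml (1.37, 1.14 to 1.63), Gap43 (1.31, 1.15 to 1.499), Caly (1.36, 1.17 to 1.58) and Csmd1 (1.24, 1.13 to 1.35) were higher in P8 cells with Pyy, although with matched depth the intervals of Opcml (1.15, 0.89 to 1.48) and Csmd1 (1.098, 0.97 to 1.247) included 1. Mgarp, at 2136 CPM with and 2683 CPM without Pyy at P8, was lower (0.80, 0.77 to 0.83), as were Adarb2 (0.81, 0.70 to 0.93) and Vwc2 (0.82, 0.73 to 0.92). Arg2, Mgst3, Ly6h, Ache, AI593442, Kcnq1ot1 and Slit2 had P8 intervals that included 1 after thinning. Without thinning, which counts more UMIs, the intervals of all 7 excluded 1, with ratios between 1.09 for Arg2 and 1.22 for AI593442 among those above 1, and 0.84 for both Kcnq1ot1 and Slit2. Outside both rules, Tecrl was again lower (0.58, 0.44 to 0.75) and Dpp10 higher (2.001, 1.27 to 3.04).

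**Figure D4:**
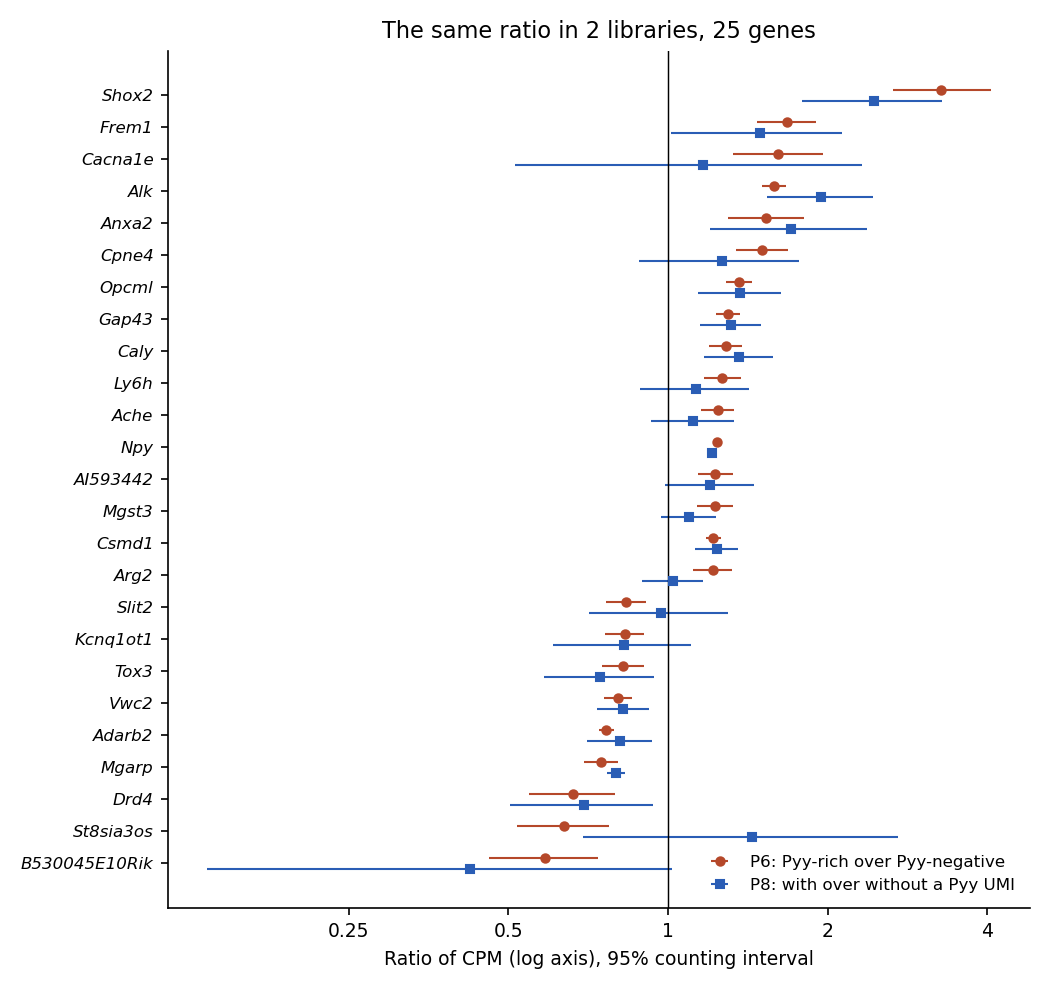
Ratio of CPM (x axis, log axis) with exact 95% counting intervals for the 25 genes called at P6 by either rule (y axis); circles give Pyy-rich over Pyy-negative cells at P6 and squares cells with over cells without a Pyy UMI at P8. St8sia3os is the one gene with its 2 points on opposite sides of 1.

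Genes that differ between ages did not divide evenly between the classes. The ages used here were P8 and P11, so that no P6 cell took part in sorting the genes. Of 299 genes at least 1.5-fold lower at P11 than at P8, 193 (64.5%) lay above 1 in Pyy-rich P6 cells. Of 628 genes at least 1.5-fold higher at P11, 205 (32.6%) lay above 1. Over all 6465 genes tested in both comparisons the share was 48.7%. Over 15 alternative settings these shares ranged from 62.9% to 72.2%, from 26.3% to 33.3% and from 47.8% to 50.3%. The differences behind them were small, with median log2 ratios of 0.03 for the genes lower at P11 and −0.05 for those higher at P11. P8 and P11 are 1 library each, and genes are not independent of each other.

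**Figure D5:**
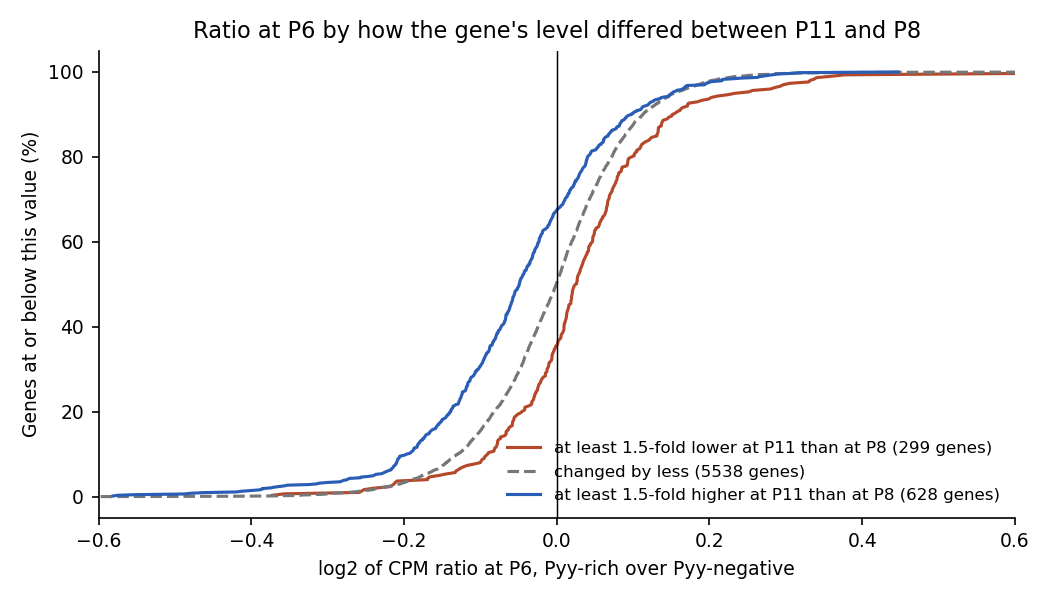
Cumulative share of genes (y axis, %) by the log2 CPM ratio of Pyy-rich over Pyy-negative P6 cells (x axis, shown from −0.6 to 0.6, so the few genes beyond are cut off), for genes lower, little different or higher at P11 than at P8. The curve of genes lower at P11 runs to the right of the curve of genes higher at P11, and at a ratio of 1 they differ as 64.5% against 32.6% of genes above it.

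Several of the genes named above belonged to these groups. Gap43 was at 257 CPM over all horizontal cells at P6, 152 CPM at P8 and 45.8 CPM at P11, Alk at 240, 39.1 and 13.0 CPM, and Ly6h at 111, 56.1 and 7.80 CPM. Dpp10, at 60.4, 11.3 and 3.49 CPM, was too low at P8 and P11 to be sorted. Among the genes higher at P11, Mgarp was at 159, 2635 and 5496 CPM and Arhgef26 at 49.98, 65.3 and 190 CPM. Npy, at 6941, 9366 and 4486 CPM, was lower at P11 than at P8 but higher at P8 than at P6. Slc12a5, at 79.3, 128 and 195 CPM, was among the genes higher at P11 and yet higher in Pyy-rich cells. Shox2, at 15.9, 19.6 and 24.0 CPM, was in neither group. Of the 12 genes listed earlier as lower at P11 than at P6, a list chosen on these libraries and so no independent evidence of direction, 8 lay above 1 in Pyy-rich cells, with Filip1l (0.89) and Gad1, the GABA-synthesising enzyme (0.85), among the 4 below. Of the 12 listed as higher at P11, 7 reached 20 CPM and 3 of them lay above 1.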

How the data were processed

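The authors deposited raw UMI counts per gene and barcode for each library, which the submitters' processing notes credit to Cell Ranger 7.1.0 and mm10. Which annotation was used, and whether intronic reads counted, is not given in the sources used here. No deposited barcode had under 500 UMIs. The libraries held 87939202 (P6), 65546590 (P8) and 105561999 (P11) UMIs. Of 9896 P6 barcodes, 8383 passed the gene minimum, 7572 also the mitochondrial limit and 7145 also the marker rule, and 931 of these were dropped for under 5000 UMIs.

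Counts were thinned without replacement (seed 1) and summed per class with Python 3.11.15, numpy 2.4.6 and scipy 1.17.1. Calls needed 20 CPM in the higher class and a ratio of 1.5. The sums and calls were checked on simulated counts with known changes. These were 2-fold up or down, in genes of at least 50 CPM, with no spread between cells beyond counting. The check therefore does not cover calls near 1.5-fold or genes under 50 CPM. Doublets were scored with Scrublet in scanpy 1.11.5, whose own threshold marked 0.0264% of cells and so had not worked. No cell was removed in the main setting. An alternative left out cells at or above the score that an expected doublet rate of 6.06% reaches. This rate was assumed, at 0.8% per 1000 of the 7572 barcodes scored, because the true rate is not known. A ratio was not given where both classes had at most 3 counts. Positions are from GENCODE vM21 (mm10), in which 32158 of 32285 features matched by ID, and 78 features that share a symbol were not named.

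The named genes were Npy, its receptors, peptide processing genes, the ankyrin genes and the 15 highest and 15 lowest ratios at 50 CPM or more. That ranking left out mitochondrial, ribosomal, hemoglobin and Y-linked genes, Xist, Tsix, provisional symbols and shared symbols. List members past 1.5 and the 10 genes most correlated with Pyy were also named. List members short of 1.5, the 1.2-fold genes, Shox2, Anxa2, Drd4, St8sia3os and B530045E10Rik were named after their values were seen. The members and the lists were chosen with earlier results of these data known.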

Additional observations from a re-analysis of the deposited data

Results flagged for a closer look

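St8sia3os, annotated antisense to St8sia3, lay on opposite sides of 1 in the libraries: its ratio was 0.64 (Pyy-rich over Pyy-negative) at P6 and 1.44 (with over without a Pyy UMI) at P8. The difference between the ages was not tested, and the P8 interval, 0.69 to 2.71, included 1. Without thinning the P8 ratio was 1.02 (0.70 to 1.45), with matched depth it was 2.75 (0.82 to 11.8), and the P6 call held under 10 of 15 alternative settings.

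Pyy UMIs were also present at P11, an age that entered no Pyy comparison. There were 20 in the 4587 horizontal cells, of which 1 cell held 14 and the other 6 cells with Pyy held 1 each.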

How the results depend on the processing

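No paired analysis was possible because each age is 1 library and nothing was tested. No called gene changed direction under 15 alternative settings of cells, thinning and scaling. Alk was called under all 15, and Shox2 and Frem1 under all but the setting that leaves out the cells holding them. Of 868 single gene values under these settings, 821 stayed within the counting interval of the reported ratio and 47 did not. Some of the 15 settings hardly differed from the main one and gave the same calls. Setting the median gene ratio to 1 moved a median log2 ratio of −0.004. Leaving out shared barcodes removed 5 Pyy-rich and 7 Pyy-negative cells. The mean over cells used cells already thinned to 5000 UMIs. Agreement under these settings is little evidence that a call is stable.

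The counts of genes called higher and lower, 6 and 3, became 11 and 18 with the top 10% of cells by Pyy as the Pyy-rich class, 31 and 56 at 5 CPM, 1 and 0 at 100 CPM, 1 and 0 at 2-fold, and 11 and 6 at 1.2-fold with 100 CPM. They were 4 and 2 both with another random seed and without thinning: Anxa2, Cacna1e, Cpne4, Drd4 and St8sia3os, 5 of the 9, were lost, and Ntm and Tecrl were called. Genes called lower numbered 5 when cells were thinned to 10000 UMIs, 5 when the classes were matched on depth, 5 without high doublet scores and 9 without cells holding other cell types' markers. Genes called higher numbered 3 without cells holding a Frem1 UMI and 3 without cells holding a Shox2 UMI, both added after the data were seen. Without the barcodes shared with another library, also added, they stayed 6 and 3. The cause of these moves was not tested, apart from fewer or more genes passing a limit.

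The log2 ratio of Npy, 0.31, was 0.37 for the top 10% by Pyy, 0.35 with matched depth, 0.33 without other cell types' markers, 0.34 without cells holding a Frem1 UMI and 0.28 without those holding a Shox2 UMI. The genes on the same side at P8, 8 of 9, were 1 of 1 at 100 CPM, 1 of 1 at 2-fold and 17 of 17 at 1.2-fold. Depth limits genes under about 50 CPM most, where Shox2, Anxa2, Cacna1e, Drd4, St8sia3os and B530045E10Rik lie.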
